A study of Mus with 6 samples.

Results

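Complement components and regulators were examined in mouse brain tissue labelled as basolateral amygdala, a region central to fear memory. The set was taken by gene name from the deposited expression table and held 9 of its 54532 genes: C1qa, C1qb, C1qc, C1s1, C4b, C3, Serping1, C3ar1 and C5ar1. The comparison asked whether transcripts of these genes differ between 3 samples labelled CNTNAP4-KO (KO), from mice named for loss of the neuronal adhesion protein Cntnap4, and 3 samples labelled wild type (WT). All 6 are labelled male, and neither age, strain, the deleted part of the gene nor the number of mice behind a sample is given in the sources used here. No treated sample was analysed here, although the series title names the bacterium Lactobacillus reuteri.

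Complement is a cascade of secreted proteins that marks targets for removal. In its classical arm, C1q, built from A, B and C chains, binds a target and switches on the proteases C1r and C1s, which cut C4 and C2 into an enzyme that cleaves C3. Fragments of C3 and C5 act on the receptors C3ar1 and C5ar1, and Serping1 encodes C1 inhibitor, which blocks C1r and C1s. In mouse brain, microglia are the main source of C1q, astrocytes express C4b, and C1q and C3 are known for tagging synapses during development.

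Libraries held between 17647556 and 20813211 reads in genes, with 25482 to 26319 genes above 0. Levels are FPKM, in which fragments are divided by gene length and by the depth of the library, so they can be set side by side between genes. Cntnap4 measured 1.61, 1.00 and 1.48 FPKM in KO replicates 1 to 3, against 2.03, 3.59 and 4.91 FPKM in WT replicates 1 to 3. The groups do not overlap, transcripts remained in KO, and the log2 difference of -1.05 ± 0.28 (SE) missed the threshold (limma adjusted p = 0.220). The library labelled KO replicate 1 contained 43.0 FPKM of Xist, the RNA that silences an X chromosome in females, and 0 reads on 4 Y-linked genes, which goes against its label of male. The other 5 libraries had at most 0.0346 FPKM of Xist and at least 2831 reads on those Y-linked genes. Slc17a7, a marker of the projection neurons of basolateral amygdala and cortex, measured 21.4, 94.3 and 19.1 FPKM in KO and 5.69, 5.37 and 6.42 FPKM in WT. All KO libraries lay above all WT libraries, and KO replicate 2 stood furthest apart. Rspo2, another gene of these neurons, was low in both groups but separate between them, at 0.936, 1.09 and 0.718 FPKM in KO and 0.414, 0.522 and 0.378 FPKM in WT. The 9 excitatory neuron genes summed to 627.2, 891.1 and 613.5 FPKM in KO, against 418.5, 356.7 and 376.3 FPKM in WT. Of these, 8 had a positive log2 difference, 7 had an unadjusted p under 0.05, beside 15.2% of all tested genes, and 0 passed the adjusted threshold in limma. Slc17a6, a vesicular glutamate transporter of other neurons, had the negative estimate (-0.59). It measured 11.82, 5.403 and 15.29 FPKM in KO and 15.51, 17.05 and 13.45 FPKM in WT. In every WT library Slc17a6 lay above Slc17a7. In such pieces of tissue, a different number of cells of a type and a different amount of RNA per cell cannot be told apart. Whether the KO and WT pieces covered the same area was not tested, so KO against WT compares the pieces as they were taken.

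No difference between KO and WT was called for any of the 9 complement genes, which does not show that their levels were equal. Of the 9, 7 averaged 0.5 FPKM or more and entered the test over 16155 genes, while C5ar1 and C3 lay below that level. In the main analysis C5ar1 and C3 had permutation tests only, which cannot give a p under 0.1 in this design. In limma on log2(FPKM + 0.5), 0 of the 7 passed an adjusted p of 0.05, where 0.0124% of all tested genes passed. That share is 2 genes, and Cntnap4, for which the KO mice are named, was not among them. So few genes passed that 0 of 7 says little about the complement genes. At an unadjusted p under 0.05 the count was again 0 of 7, against 15.2% of all tested genes, and voom on recovered reads also called 0. This unadjusted count was 1 of 7 with quantile normalization and without KO replicate 1 (C1qb in both). It was also 1 of 7 without KO replicate 2 (C1qc) and without WT replicate 3 (Serping1). The share of all tested genes was not counted under these settings. KO and WT values overlapped in all 7, whereas they were separate for 22.6% of all tested genes. The median log2 difference (KO minus WT) of the 7 was 0.14, beside 0.01 over all tested genes, and their adjusted p ran from 0.464 to 0.831. Among the 7, the interval of the KO to WT ratio was widest for Serping1 (0.675 to 2.80) and narrowest for C1qc (0.873 to 1.32). Changes within these intervals are not excluded.

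**Figure D1:**
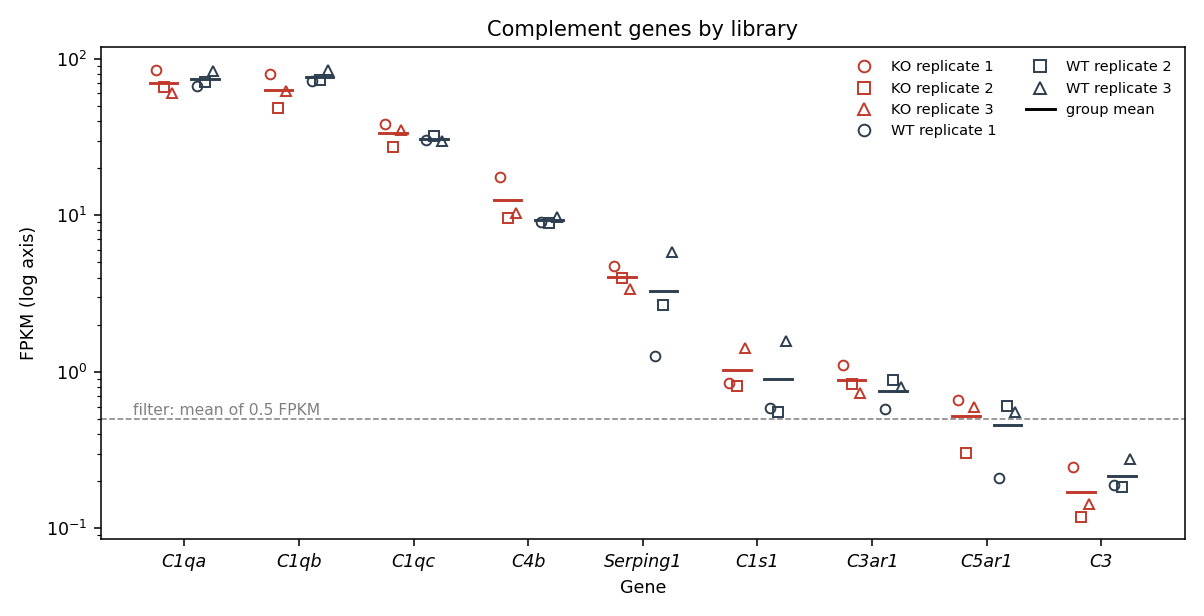
FPKM (log axis) of the 9 complement genes in each library, KO left of WT for each gene, with a bar at each group's mean and a dashed line at 0.5 FPKM. C1qa and C1qb lie between 48.6 and 85.0 FPKM, C3 lies between 0.118 and 0.277 FPKM, and KO and WT points overlap for every gene.

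Levels of the 9 genes spanned the range from abundant to barely detected. By mean over the 6 libraries, C1qa ranked 578, C1qb 604 and C1qc 1523 of all genes, and C4b ranked 4712. Serping1 came next at rank 9463, then C1s1 at 14003, C3ar1 at 14513, C5ar1 at 16228 and C3 at 19582. Values of C1qa and C1qb overlapped across libraries, as did those of Serping1 and C1s1, of C1s1 and C3ar1, of C3ar1 and C5ar1, and of C5ar1 and C3. C1qc lay below every C1qb value, C4b below every C1qc value and Serping1 below every C4b value.

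The C1q chains made up most of the set's transcripts. They took 89.0%, 90.0% and 90.5% of its summed FPKM in KO replicates 1 to 3, against 93.4%, 92.7% and 91.3% in WT replicates 1 to 3. C4b took 7.69%, 6.13% and 5.90% in KO and 4.99%, 4.72% and 4.51% in WT. Both shares were separate between the groups in these 6 libraries, a description with no test, since the shares depend on which genes were put in the set.

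C1qa, C1qb and C1qc encode the A, B and C chains, which assemble in equal numbers into the C1q molecule. Their genes lie side by side on the minus strand of chromosome 4 within 18.7 kb (136880129 to 136898803, GRCm38), in the order C1qb, C1qc and C1qa by coordinate, with gaps of 3.62 and 2.85 kb. Each rested on at least 947 reads in every library, so counting alone adds little to their error.

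C1qa (ENSMUSG00000036887) measured 84.8, 65.8 and 60.6 FPKM in KO replicates 1 to 3, against 67.0, 70.8 and 84.0 FPKM in WT replicates 1 to 3. The highest value of each group was nearly the same, and the lowest KO value lay just below the lowest WT value. The mean was 70.4 ± 12.7 FPKM in KO and 74.0 ± 8.95 FPKM in WT (SD, n = 3 each). The log2 difference was -0.08 ± 0.15 (limma adjusted p = 0.831), with a 95% interval of 0.747 to 1.20 for the KO to WT ratio.

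C1qb (ENSMUSG00000036905) measured 79.7, 48.6 and 62.2 FPKM in KO, against 71.9, 73.2 and 85.0 FPKM in WT. KO replicates 2 and 3 lay below all WT values and KO replicate 1 lay among them. The log2 difference was -0.30 ± 0.18 (limma adjusted p = 0.465), and the interval for the ratio ran from 0.610 to 1.09. Without KO replicate 1, the library that goes against its label, the difference was -0.47 (adjusted p = 0.286), and without KO replicate 2 it was -0.12 (adjusted p = 0.725).

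C1qc (ENSMUSG00000036896) measured 38.1, 27.1 and 34.8 FPKM in KO, against 30.3, 32.3 and 29.6 FPKM in WT. Here KO replicates 1 and 3 lay above all WT values and KO replicate 2 below them. The log2 difference of 0.10 ± 0.13 had an adjusted p of 0.731 in limma. The estimate was 0.24 without KO replicate 2 (adjusted p = 0.300) and 0.00 without KO replicate 1.

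Set against each other within a library, the chains did not keep a fixed proportion. The FPKM of C1qc over that of C1qb was 0.478, 0.558 and 0.560 in KO replicates 1 to 3, against 0.421, 0.440 and 0.348 in WT replicates 1 to 3. Every KO ratio lay above every WT ratio. Among single tested genes, 22.6% were separate between the groups in either direction, and the share over other gene ratios was not counted. The mean ratio was 0.532 ± 0.0469 in KO and 0.403 ± 0.0486 in WT (SD, n = 3 each), so the KO mean was 1.32 times the WT mean. A two-sided exact permutation test gave p = 0.1, the floor of a design with 3 samples a group, and 0.3 after Benjamini-Hochberg adjustment over the 3 ratios compared. The 95% counting interval of KO replicate 1 (0.445 to 0.513) overlapped that of WT replicate 2 (0.407 to 0.476). Leaving out each library in turn, a check chosen after seeing the data, kept the log2 difference of 0.40 between 0.30 and 0.48. A ratio within a library does not depend on how the library was scaled.

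The other chain ratios overlapped between the groups. C1qa over C1qb was 1.06, 1.35 and 0.975 in KO and 0.932, 0.967 and 0.988 in WT (exact permutation p = 0.2). C1qa over C1qc was 2.23, 2.43 and 1.74 in KO and 2.21, 2.20 and 2.84 in WT (exact permutation p = 0.6). KO replicate 2 stood highest in the first of these ratios and WT replicate 3 in the second.

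**Figure D2:**
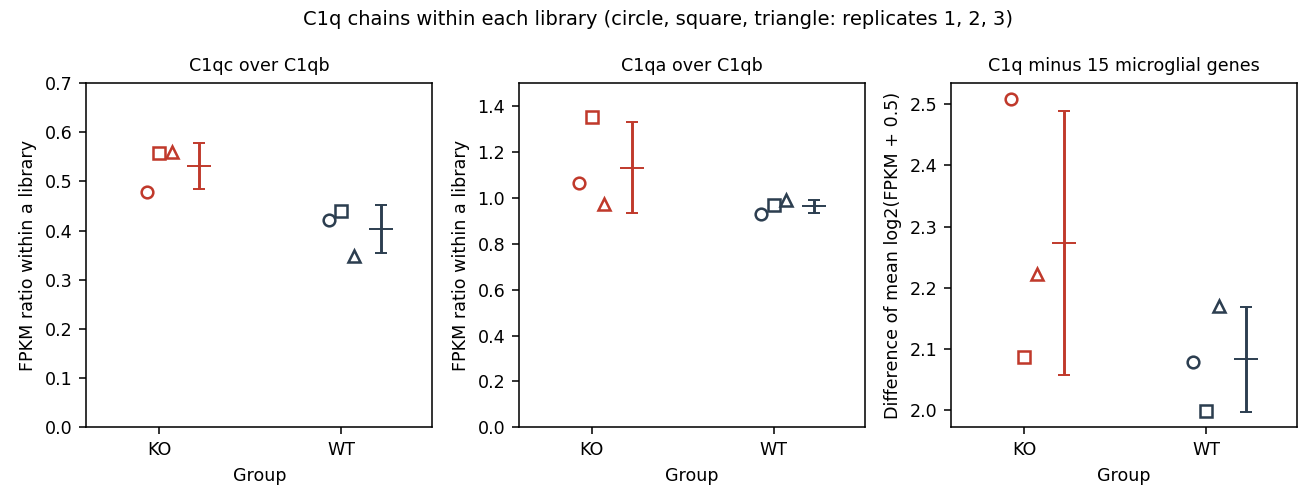
FPKM ratios of C1q chains within each library and the mean log2 level of the C1q chains minus that of 15 microglial genes, KO left of WT, with mean and SD beside the points. C1qc over C1qb is at least 0.478 in KO and at most 0.440 in WT, while the other quantities overlap.

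Microglial genes were measured beside C1q, since these cells are its main source. All 15 genes of the microglial list were tested and all had a negative log2 difference, with a median of -0.23, but 0 passed the adjusted threshold (limma, lowest adjusted p = 0.187). An unadjusted p under 0.05 was found for 7 of the 15, beside 15.2% of all tested genes in either direction. That count was 4 without KO replicate 2, without WT replicate 2 or with plain moderation, and 10 with quantile normalization. For these settings the share of all tested genes was not counted, so these counts have no background beside them. Fcrls, a receptor-like gene of microglia, had a log2 difference of -0.83 ± 0.15 (adjusted p = 0.187), and Siglech, a sialic acid-binding receptor, had -0.37 ± 0.09 (adjusted p = 0.207). Summed over the list, FPKM was 272.6, 234.6 and 248.9 in KO, against 278.0, 302.4 and 310.8 in WT, and no gene of the list was at 0. The KO sums lay below all WT sums. The C1q chains summed to 202.5, 141.5 and 157.6 FPKM in KO, against 169.1, 176.3 and 198.7 FPKM in WT. For C1q, KO replicates 2 and 3 also lay below all WT sums. KO replicate 1, the library that goes against its label, lay above them.

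The mean log2 level of the C1q chains exceeded that of the microglial list by 2.51, 2.09 and 2.22 in KO, against 2.08, 2.00 and 2.17 in WT. KO replicate 1 was highest, and KO replicate 2 lay within the WT range. The part of the microglial level in the C1q values was not tested. Between 13 and 15 of the 15 microglial differences stayed negative when single libraries were left out.

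C4b encodes complement C4, which C1s cuts to form the C3-cleaving enzyme. The gene (ENSMUSG00000073418) lies on the minus strand of chromosome 17 (34728380 to 34743882). It measured 17.5, 9.63 and 10.3 FPKM in KO, against 9.04, 8.98 and 9.81 FPKM in WT. KO replicate 1 alone lay far above the rest, KO replicate 3 lay above all WT values, and KO replicate 2 lay within the WT range. That high value rests on 1874 reads, with a counting interval of 16.7 to 18.3 FPKM.

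C4b averaged 12.5 ± 4.36 FPKM in KO and 9.28 ± 0.464 FPKM in WT (SD, n = 3 each). The log2 difference of 0.36 ± 0.21 missed the threshold (limma adjusted p = 0.464, interval of the ratio 0.903 to 1.82). Without KO replicate 1 it was 0.10 (adjusted p = 0.633), and without KO replicate 2 it was 0.51 (adjusted p = 0.386). C4a, a close copy 65.2 kb away, was listed at 0.188 to 0.282 FPKM in KO and 0.245 to 0.287 FPKM in WT. How reads shared by C4b and C4a were assigned is not known, so the level of each is uncertain.

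Astrocyte and reactive glia genes were read beside C4b. The summed FPKM of 10 astrocyte genes was 753.8, 643.2 and 711.9 in KO and 651.3, 695.6 and 667.3 in WT, with 0 of the 10 past the adjusted threshold and a median log2 difference of -0.01. Over the 12 reactive glia genes the sum was 120.7, 81.9 and 103.0 FPKM in KO and 96.4, 102.7 and 128.3 FPKM in WT. Neither list had a KO replicate 1 value as far above the other libraries as C4b did. Within the reactive list, Serpina3n, a protease inhibitor of reactive astrocytes chosen after its values were seen, measured 20.1, 6.53 and 8.61 FPKM in KO and 10.9, 10.3 and 10.3 FPKM in WT. Other genes of the list did not share its peak in KO replicate 1. Gfap was nearly equal in KO replicate 1 and WT replicate 3 (63.78 and 63.74 FPKM). Vim and S1pr3 were highest in KO replicate 3 (12.14 and 2.618 FPKM), and Lcn2 and Cp in WT replicate 3 (17.01 and 5.78 FPKM). The part of these genes in the C4b values was not tested.

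C3, the central component whose cleavage all arms of the cascade share, was close to the limit of these libraries. It measured 0.248, 0.118 and 0.143 FPKM in KO, against 0.190, 0.184 and 0.277 FPKM in WT, on 24, 11 and 13 reads in KO and 18, 17 and 31 reads in WT. The groups overlap, and the exact two-sided permutation p was 0.4. Counting alone gave WT replicate 3 an interval of 0.188 to 0.394 FPKM and KO replicate 2 one of 0.0590 to 0.211 FPKM, and these overlap. The gene (ENSMUSG00000024164) lies on chromosome 17 (57203970 to 57228136), 22.5 Mb from C4b. Without a filter on low values its log2 difference was -0.10 ± 0.14 (limma adjusted p = 0.790).

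Serping1, the gene of C1 inhibitor (ENSMUSG00000023224, chromosome 2, 84765387 to 84775444), was the most variable of the set. It measured 4.76, 3.99 and 3.40 FPKM in KO, against 1.26, 2.68 and 5.84 FPKM in WT. The KO libraries lay between the second and the highest WT value, and WT values differed 4.64-fold among themselves. That range exceeds counting error, since the intervals of WT replicate 1 (0.946 to 1.64 FPKM) and WT replicate 3 (5.19 to 6.54 FPKM) are far apart.

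Within the groups, the pooled SD of log2 Serping1 was 0.67, and 3.19% of tested genes had a larger one. Its means were 4.05 ± 0.681 FPKM in KO and 3.26 ± 2.34 FPKM in WT (SD, n = 3 each), and the log2 difference of 0.46 ± 0.43 missed the threshold (limma adjusted p = 0.639). The 95% interval for the ratio ran from 0.675 to 2.80. Without WT replicate 3 the difference was 0.93 (adjusted p = 0.309), and without WT replicate 1 it was 0.01 (adjusted p = 0.992).

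C1s1 encodes the C1s protease, the target of C1 inhibitor (ENSMUSG00000038521, chromosome 6, 124530345 to 124542359). It measured 0.850, 0.812 and 1.42 FPKM in KO, against 0.589, 0.551 and 1.57 FPKM in WT. WT replicate 3 and KO replicate 3 were high and the other WT libraries low. The log2 difference was 0.17 ± 0.30 (limma adjusted p = 0.815), and it was 0.49 without WT replicate 3 (adjusted p = 0.389) and 0.00 without WT replicate 2. C1s2, its close copy, was at most 0.0999 FPKM in any library, and how shared reads were assigned is not known.

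Genes of fibroblasts and meninges varied across the WT libraries in the same order as Serping1. The summed FPKM of the 9 listed genes was 21.0, 21.1 and 19.8 in KO, against 7.32, 19.1 and 29.1 in WT. WT replicate 1 was the lowest and WT replicate 3 the highest, as for Serping1. The order within WT was not particular to these genes. Sums of the microglial, reactive glia, interferon, endothelial, mural and border macrophage lists also rose from WT replicate 1 to 3. Those of the astrocyte, oligodendrocyte, choroid plexus, blood, plasma protein and excitatory neuron lists did not. Of the 9 fibroblast and meningeal genes, 8 were tested and 0 passed in limma (lowest adjusted p = 0.502). Their median log2 difference was -0.03, and it was 0.28 without WT replicate 3 and -0.29 without WT replicate 1. Aldh1a2, the retinoic acid synthesis enzyme of meninges, measured 5.83, 5.66 and 5.53 FPKM in KO and 1.60, 5.38 and 8.25 FPKM in WT. Slc13a4, a meningeal sulphate transporter, measured 3.06, 3.22 and 3.00 FPKM in KO and 0.419, 2.90 and 4.05 FPKM in WT. The part of these cells in the Serping1 and C1s1 values was not tested.

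Interferon response genes were read here because interferon is known to raise Serping1. The 14 genes summed to 66.7, 46.6 and 60.3 FPKM in KO, against 45.7, 52.9 and 70.2 FPKM in WT. WT replicate 3 was the highest and WT replicate 1 the lowest. None of the 14 passed the adjusted threshold in limma, 1 had an unadjusted p under 0.05, beside 15.2% of all tested genes, and the median log2 difference was 0.11.

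**Figure D3:**
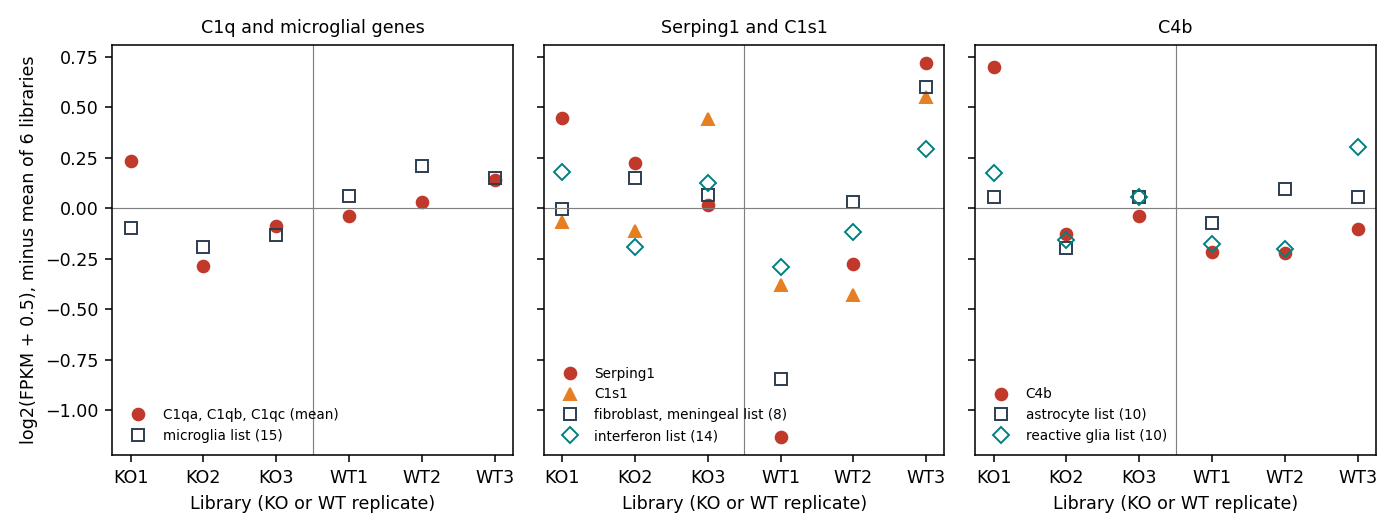
Mean log2(FPKM + 0.5) of complement genes and marker lists in each library, minus its mean over the 6 libraries, KO left of WT. C4b is high in KO replicate 1 alone, and Serping1 and the fibroblast and meningeal list are both lowest in WT replicate 1 and highest in WT replicate 3.

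The receptors were present at low levels. C3ar1, the receptor of the C3a fragment on microglia and other myeloid cells (ENSMUSG00000040552, chromosome 6, 122847138 to 122856161), measured 1.10, 0.834 and 0.734 FPKM in KO, against 0.579, 0.891 and 0.801 FPKM in WT. KO replicate 1 was highest, WT replicate 1 lowest and the rest interleaved. The log2 difference was 0.14 ± 0.17 (limma adjusted p = 0.723, interval of the ratio on the log2(FPKM + 0.5) scale 0.832 to 1.47). It was 0.038 without KO replicate 1 and 0.037 without WT replicate 1 (adjusted p = 0.947 and 0.952).

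C5ar1, the receptor of the C5a fragment (ENSMUSG00000049130, chromosome 7, 16246743 to 16259540), measured 0.662, 0.301 and 0.593 FPKM in KO, against 0.211, 0.606 and 0.555 FPKM in WT. Each group held a low library, KO replicate 2 with 14 reads and WT replicate 1 with 10 reads. The exact two-sided permutation p was 0.6. Without a filter the log2 difference was 0.10 ± 0.23 (limma adjusted p = 0.886).

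The rest of the cascade was read from 47 further complement genes grouped by role. Of these, 21 were tested and 26 were below 0.5 FPKM. In limma 0 of the 21 passed the adjusted threshold and 0 had an unadjusted p under 0.05, beside 0.0124% and 15.2% of all tested genes. KO and WT values overlapped in all 21, while they were separate for 22.6% of all tested genes. Their median log2 difference was 0.00, with 10 positive and 11 negative and adjusted p from 0.383 to 0.991.

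Genes of initiation had values of both signs. Of 19 genes, 9 were tested, 4 of them outside the set of C1q, C1s1 and C4b. Colec12, a collectin that acts as a scavenger receptor, had the highest level of those 4, at 3.99, 4.66 and 4.26 FPKM in KO and 2.71, 3.95 and 5.21 FPKM in WT. C1ra, the C1r protease, had a log2 difference of -0.14 ± 0.25 (adjusted p = 0.830), and C2, the partner of C4, had -0.08 ± 0.22 (adjusted p = 0.893).

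Most genes of the alternative and terminal arms lay below the filter. Properdin, encoded by Cfp and a stabiliser of the alternative C3-cleaving enzyme, was the 1 gene tested of 4 in its group, at 2.48, 5.12 and 4.91 FPKM in KO and 4.93, 5.09 and 5.11 FPKM in WT. KO replicate 1 stood apart below the other 5 libraries, which lay close together. Cfp lies on chromosome X, and KO replicate 1 is the library that goes against its label of male. The part of sex in the Cfp values was not tested. The log2 difference of Cfp was -0.30 ± 0.24 (limma adjusted p = 0.572), and -0.0081 without KO replicate 1. Cfb and Cfd, the factors B and D of the same arm, were at most 0.196 FPKM and 0.0599 FPKM in any library. Of the terminal genes, which build the membrane attack complex, 6 of 7 were below the filter and C8g, at 1.85, 0.962 and 1.59 FPKM in KO and 1.63, 1.79 and 1.39 FPKM in WT, was the exception. C9, C1rb, Mbl1 and Cd55b had 0 reads in all 6 libraries, which allows at most 0.0169 FPKM for each when 3 reads over the 6 libraries are taken as the limit.

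Regulators were the best represented group, with 13 of 17 tested. Clu, the secreted chaperone clusterin that also binds terminal components, ranked 115 of all genes, at 227.1 ± 19.8 FPKM in KO and 210.0 ± 21.9 FPKM in WT (log2 0.11 ± 0.11, limma adjusted p = 0.647; 0.059 without KO replicate 1 and 0.055 without WT replicate 1). Cd46, a membrane cofactor for C3b breakdown, had a log2 difference of -0.25 ± 0.17 (adjusted p = 0.524), the lowest p among the regulators outside the 9. Csmd3, of the Cub and Sushi domain family, had -0.18 ± 0.13 (adjusted p = 0.553), and -0.066 without KO replicate 1. Susd4, a Sushi domain protein known to inhibit complement, measured 29.7 ± 1.39 FPKM in KO and 28.0 ± 1.75 FPKM in WT (adjusted p = 0.618).

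Among receptors, 4 of 9 were tested. Itgam and Itgb2 encode the chains of complement receptor CR3, through which microglia take up C3-tagged material. Itgam measured 1.51, 1.39 and 2.28 FPKM in KO, against 2.03, 2.33 and 2.52 FPKM in WT, with a log2 difference of -0.35 ± 0.17 (limma adjusted p = 0.383). Itgb2 measured 3.31, 2.55 and 2.96 FPKM in KO, against 2.20, 2.84 and 2.56 FPKM in WT, with a log2 difference of 0.18 ± 0.13 (adjusted p = 0.531). It was 0.10 without KO replicate 1 and 0.099 without WT replicate 1. The chains had estimates of opposite sign, neither beyond the spread, and whether they differ from each other was not tested. Cd93, a receptor of endothelial and myeloid cells, had -0.04 ± 0.18 (adjusted p = 0.927).

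**Figure D4:**
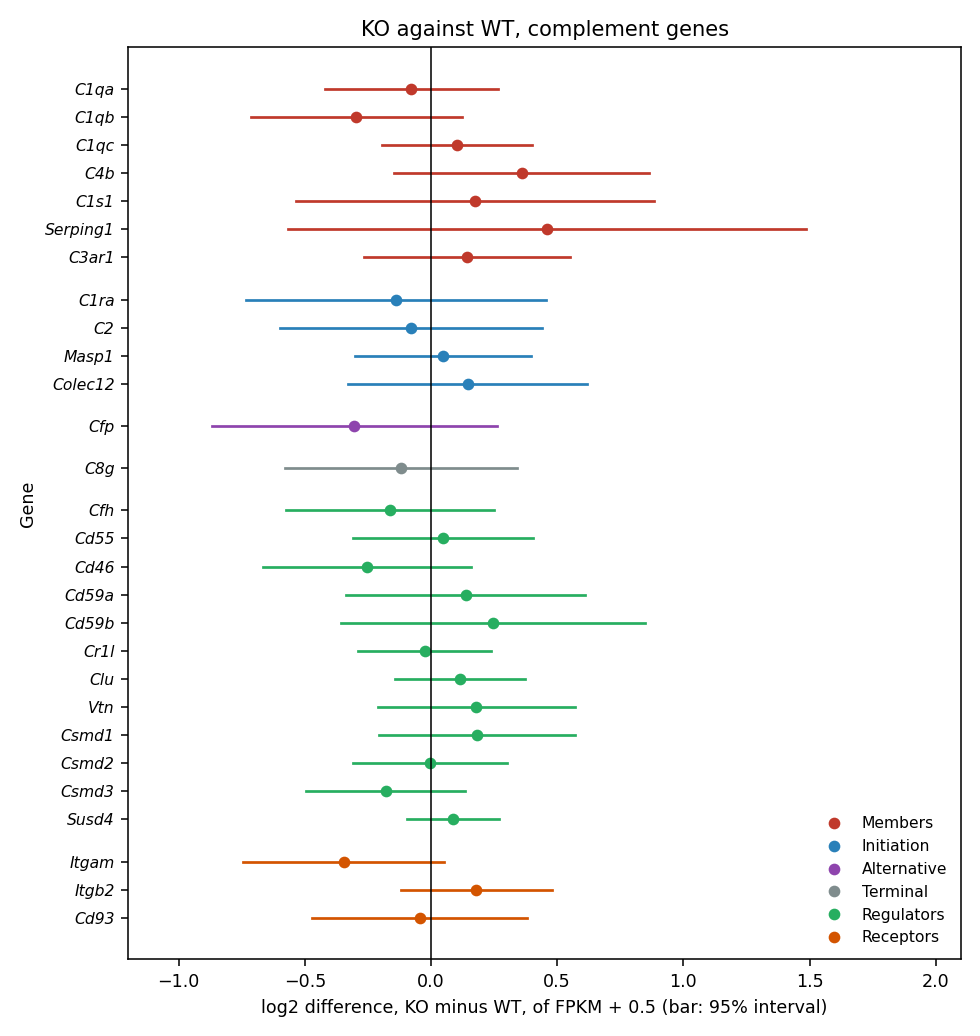
Log2 difference (KO minus WT, on log2(FPKM + 0.5)) with its 95% interval for the 7 tested genes of the set and 21 further complement genes, grouped by role. Every interval includes 0, and that of Serping1 is wide, from -0.57 to 1.48.

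Genes with the most similar pattern over the 6 libraries were found by the root-mean-square difference of centred log2 levels among 11863 named protein-coding genes. For the mean of the C1q chains they were Pgm2 (0.04), Endod1 (0.04), Srebf1 (0.04), Arl2 (0.05) and Nudt7 (0.05). For C4b they were Pcdhb8 (0.07), Pmaip1 (0.07), Fam107a (0.09), Selenbp1 (0.10) and Xdh (0.10), each highest in KO replicate 1. For Serping1 they were Slc6a20a (0.14), Mgp (0.19), Acta2 (0.21), Aldh1a2 (0.22) and Bmp6 (0.23), each lowest in WT replicate 1. Genes picked by pattern share its high and low libraries by construction. The distances are a description over 6 libraries and carry no test.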

How the data were processed

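RNA was column-purified and made into libraries with a SMARTer mRNA kit, per the labels' protocols; the build was GRCm38 (mm10), per the submitters' processing notes. Neither the aligner nor the counter, annotation release or use of strand is given in the sources used here. The authors deposited gene-level FPKM for 54532 genes, with gene lengths. All 6 sample columns were matched by name. FPKM times length gave whole multiples of 1 step per library for 100% of nonzero values (tolerance 0.01 read), and these recovered reads gave depths, Poisson 95% intervals and limits of 3 reads, which cover counting error only.

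Genes averaging 0.5 FPKM or more (16155) were tested with limma 3.58.1 (R 4.3.3), trend and robust moderation, on log2(FPKM + 0.5), KO minus WT, which understates changes of low genes; Benjamini-Hochberg adjustment ran over all tested genes, threshold 0.05. The fit was also run on simulated reads with the same extra spread for all genes, which does not show how it performs on these data. Errors beside log2 differences are SE. Chain ratios, C3 and C5ar1 had exact two-sided permutation tests. The labels number the samples and say no more of the origin of the mice, and p-values cover only the spread between the 6 samples.

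The genes and lists were chosen with earlier results of these data known. Named genes were the 9, Cntnap4, in each other complement group the most abundant gene and up to 3 with the smallest p, in marker lists up to 3 likewise, and 5 by likeness. Xist, Slc17a6, Slc17a7, Rspo2, Kl, Folr1, Kcnj13, Aqp1, Serpina3n, Alb, C4a, C1s2, Cfb, Cfd, Masp2, Fcna and the genes at 0 were added with their values known. Alternatives were other pseudocounts, filters and scalings, plain moderation, voom on recovered reads, the replicate block and leaving out each library.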

Additional observations from a re-analysis of the deposited data

How the results depend on the processing

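In the limma fits and in voom, 0 complement genes of the set passed the adjusted threshold under any of the 16 alternatives, with adjusted p from 0.286 to 0.999, and the median log2 difference of the tested ones stayed between 0.01 and 0.24; at 5 FPKM only C1q and C4b were left. The count over all genes, 2 as reported, was 5 after rescaling to an equal sum, 1 with quantile normalization and 0 with a pseudocount of 0.1, no filter, a filter at 5 FPKM, voom or the replicate block. Leaving out single libraries gave 0 to 9 genes (9 without KO replicate 1). Separate KO and WT values, 0 of 7 as reported, came to 0 to 3 of 7 when a library was left out: C1qa and C1qb without KO replicate 1, C1qc and C4b without KO replicate 2, and C4b, Serping1 and C1s1 without WT replicate 3, where 33.2%, 33.4% and 36.3% of all tested genes were separate. Of 109 estimates of the 7 genes, 106 kept their sign; C1qa was 0.022 without KO replicate 3 and 0.017 without WT replicate 3 (lowest -0.22 with a library left out) and C1s1 was -0.0032 without KO replicate 3 (highest 0.49). With a library left out, signs also turned for Colec12 (-0.072 without WT replicate 1 to 0.34), C1ra (-0.29 to 0.12 without WT replicate 3), C2 (-0.24 to 0.049 without KO replicate 2, and 0.045 without WT replicate 3), C8g (-0.26 to 0.080 without KO replicate 2) and Cd93 (-0.17 to 0.11 without KO replicate 1, and 0.05 without WT replicate 3). Clu was -0.035 with quantile normalization. The cause was not tested. Same-numbered KO and WT libraries did not deviate together (correlations -0.0899, -0.138 and -0.0661), so numbers were not taken as pairs. C3 and C5ar1 rested on 10 to 32 reads a library, and what depth contributes to their spread was not tested.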

Other observations

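Plasma protein genes of liver, where most circulating complement is made, were close to absent. Of 8 such genes, 7 were below 0.5 FPKM, and Alb, the gene of albumin, had 0 reads in all KO libraries and at most 0.0463 FPKM in WT. Of 6 choroid plexus genes, Folr1, Kcnj13 and Aqp1 were also below 0.5 FPKM. Ttr, the transthyretin gene of that epithelium, measured 4.01, 0.634 and 18.7 FPKM in KO and 26.9, 29.6 and 24.8 FPKM in WT (log2 -2.58 ± 0.91, limma adjusted p = 0.280), while Kl and Clic6 had log2 differences of 0.03 and 0.10. Genes of border macrophages, which also express complement, summed over 7 genes to 5.70, 5.32 and 5.23 FPKM in KO and 2.58, 2.65 and 5.68 FPKM in WT, and 0 of the 4 tested passed in limma (0 also at an unadjusted p under 0.05). Oligodendrocyte genes summed to 928.8, 684.1 and 1001 FPKM in KO, against 1195, 1581 and 1266 FPKM in WT, with a median log2 difference of -0.69. Blood genes summed to 156.7, 94.3 and 180.9 FPKM in KO, against 69.7, 84.4 and 63.3 FPKM in WT, with a median of 1.38. In both lists the KO and WT sums were separate and 0 genes passed the adjusted threshold in limma, while 9 of 10 oligodendrocyte genes and 5 of 6 blood genes had an unadjusted p under 0.05, beside 15.2% of all tested genes. Endothelial genes (133.2, 114.8 and 124.4 FPKM in KO, 115.9, 119.3 and 146.0 FPKM in WT) and mural genes (63.5, 66.7 and 64.3 FPKM in KO, 51.4, 62.7 and 75.9 FPKM in WT) had overlapping sums, with 0 adjusted calls and 1 unadjusted p under 0.05 in each list, of 10 and 6 genes tested.

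Single libraries stood out in lectin pathway genes that were below the filter, named after their values were seen. Masp2, a protease of that pathway, had 24 reads in KO replicate 2 and at most 8 in any other library. Fcna, the lectin ficolin A, had 20 reads in KO replicate 1 and 16 in WT replicate 3, against 5 to 9 in the rest. No explanation was tested.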
